A study of Mus musculus with 15 samples.

Results

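The 8 genes described here encode the enzymes and regulators that let the kidney make glucose: Pck1, Pck2, G6pc, Fbp1, Pcx, Slc37a4, Glud1 and Ppargc1a. They were chosen by name as the core of renal gluconeogenesis, with earlier results of these data known, so their counts beside all genes are a description. Found by symbol among the 17832 genes of the series, all 8 of 8 were present and passed the filter on low values. The kidneys came from male C57BLKS/J mice aged 22 weeks. The study holds 3 groups of 5 libraries. The m/m mice, the non-diabetic controls of this strain, received the vehicle, 0.5% methylcellulose. The db/db mice, homozygous for a leptin receptor mutation that removes its signalling isoform in every tissue, become obese, insulin resistant and hyperglycaemic. They received either the same vehicle or dapagliflozin at 1 mg/kg, a drug that blocks glucose reabsorption by SGLT2 in the proximal tubule. The db/db state is a whole-body model of leptin receptor loss, so effects on the kidney itself and effects of obesity or high glucose cannot be told apart. The labels do not say whether each library is a separate animal, and the p-values reflect the spread among these samples only, which may in part be technical.

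Gluconeogenesis builds glucose from lactate, glutamine, other amino acids and glycerol. Besides the liver, the kidney is the main organ that can release the product, because its proximal tubule cells hold glucose-6-phosphatase. Cytosolic phosphoenolpyruvate carboxykinase, encoded by Pck1, is the classical point of control; cyclic AMP, glucocorticoids and acidosis raise its transcription and insulin lowers it. Glutamine is a preferred renal substrate, and its breakdown yields both carbon for glucose and ammonia for acid excretion.

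Levels are in FPKM, reads scaled to a length for each gene and to the reads of each library. The lengths implied by reads and FPKM were 15903 bases for Ppargc1a and 3405 for Pck2, against 2637 for Pck1 and 1718 for Fbp1. Comparisons of level between genes depend on these lengths, and whether they match the transcripts present was not tested. A deep set of libraries (m/m 1 to 5 and db/db vehicle 1 to 3) held 14.8 to 16.4 M reads and a shallow set (db/db vehicle 4 and 5 and dapagliflozin 1 to 5) held 1.60 to 2.29 M. Because the sets also differ in level for many genes, genotypes were compared only in the deep set (3 db/db against 5 m/m libraries) and the drug only in the shallow set. In the shallow set, some libraries differed by less than the noise of sampling reads. The variance between dapagliflozin 2 and 3 was 0.727 times what sampling alone gives, and these were counted as 1 sample. Vehicle 5 with dapagliflozin 1 stood at 0.729 and vehicle 4 with dapagliflozin 5 at 0.770, although these pairs carry different treatment labels. With dapagliflozin 1 and 2 (0.891), 4 of 21 pairs of shallow libraries were below 1, against 0 of 28 pairs of deep libraries. Whether these pairs share RNA or reads was not tested. If they did, both vehicle libraries would hold material of drug libraries and the drug comparison would not be one of independent groups, although the fit treats them as such. Results on the drug are therefore given with and without dapagliflozin 1 and 5. Vehicle 4 and 5 stay in both fits, so leaving out these drug libraries cannot remove the doubt. Kidney markers were abundant in all libraries, with the phosphate transporter gene Slc34a1 at 1666 to 3147 FPKM and uromodulin (Umod) at 553 to 834, both in loci that overlap another gene. Counting SDs given below cover counting error alone, because reads that carry no molecular identifiers need not be independent molecules.

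The promoter sequences below are shown because they hold letter matches to short cores of cyclic AMP or insulin response elements. They are the 250 bases before the annotated start, 5′ to 3′ on the gene's strand, from RefSeq on GRCm38.p6; capitals mark a match to TGACG or its reverse complement CGTCA (the short core of a cyclic AMP response element), to CAAAACA or its reverse complement TGTTTTG (the core of an insulin response element), or to TATAAA (the TATA box, both strands searched).
Pck1 (chr2:173152823-173153072, plus strand): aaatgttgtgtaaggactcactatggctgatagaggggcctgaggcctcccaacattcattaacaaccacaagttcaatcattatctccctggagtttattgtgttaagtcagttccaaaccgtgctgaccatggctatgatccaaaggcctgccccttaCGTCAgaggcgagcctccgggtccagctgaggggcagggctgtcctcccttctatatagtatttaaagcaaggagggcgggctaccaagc
Ppargc1a (chr5:51567726-51567975, minus strand): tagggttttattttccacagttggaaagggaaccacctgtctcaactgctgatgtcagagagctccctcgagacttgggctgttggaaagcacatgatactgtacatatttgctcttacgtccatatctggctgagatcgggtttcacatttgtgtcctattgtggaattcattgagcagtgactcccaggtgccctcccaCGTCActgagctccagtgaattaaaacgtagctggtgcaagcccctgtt
Slc37a4, first of 3 annotated starts (chr9:44396696-44396945, plus strand): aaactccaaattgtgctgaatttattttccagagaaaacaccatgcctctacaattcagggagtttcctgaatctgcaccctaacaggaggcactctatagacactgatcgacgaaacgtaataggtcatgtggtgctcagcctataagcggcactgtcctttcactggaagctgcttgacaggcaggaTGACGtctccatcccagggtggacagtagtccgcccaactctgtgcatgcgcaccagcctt
G6pc (chr11:101367466-101367715, plus strand): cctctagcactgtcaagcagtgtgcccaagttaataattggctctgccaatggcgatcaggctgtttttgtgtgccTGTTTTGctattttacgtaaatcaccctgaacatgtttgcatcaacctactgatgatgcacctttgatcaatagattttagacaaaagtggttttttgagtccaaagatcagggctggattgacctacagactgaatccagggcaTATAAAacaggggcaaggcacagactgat

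The cyclic AMP core lay at −90 to −86 from the start in Pck1, at −49 to −45 in Ppargc1a and at −61 to −57 from the first start of Slc37a4. From the second start of Slc37a4 it lay at −214 to −210, the same bases as for the first start, and at −82 to −78. It was present in 4 of the 11 windows of the 8 genes, from 3 genes, and in 17.8% of 32851 promoter windows of that length. The insulin response core lay at −174 to −168 in G6pc and at −159 to −153 in Pck2, and 5.56% of all windows hold it. The TATA box lay at −29 to −24 in G6pc and at −32 to −27 of the third start of Slc37a4, and 12.4% of windows hold that motif. Of 11 windows of the 8 genes, 0 held the forkhead site TGTTTAC, the HNF4A repeats CAAAGGTCA and CAAAGTCCA or the glucocorticoid site TGTTCT on either strand, against 3.17%, 0.426%, 0.384% and 16.1% of all windows. None of the searched motifs overlapped another within these 8 genes. A match describes the letters and not a bound factor, and the data hold no measure of binding.

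The genes fell into distinct tiers of FPKM in the non-diabetic kidney. Pck1 led at 1007 ± 243 FPKM (SD, n = 5), rank 31 of all 17832 genes, and Fbp1 followed at 802 ± 52.7, with ranges that overlapped. G6pc, Pcx and Glud1 stood at 223 ± 16.1, 211 ± 18.5 and 198 ± 11.1 FPKM, and neighbours in that order overlapped. Slc37a4, at 101 ± 8.72 FPKM, lay apart from the genes above and below it. The coactivator gene Ppargc1a (5.41 ± 0.265) and the mitochondrial carboxykinase gene Pck2 (3.02 ± 0.382) were lower than every other member in all 5 libraries. Pck1 FPKM was 229 to 403 times that of Pck2 across the m/m libraries. In the deep db/db vehicle libraries the order was nearly kept, with Pck1 at rank 9 and Glud1 ahead of Pcx. Reads of the 8 genes made up 0.521% to 0.71% of all reads in the m/m group and 0.799% to 1.17% in deep db/db vehicle libraries, without overlap. Pck1 alone gave 30.4% to 46.5% of these reads in m/m and 37.1% to 55.6% in deep db/db. Its own share of all reads did overlap, at 0.158% to 0.323% against 0.297% to 0.611%. In the shallow libraries the share of the 8 genes was 0.719% and 0.951% under vehicle and 0.705% to 0.894% under dapagliflozin.

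**Figure D1:**
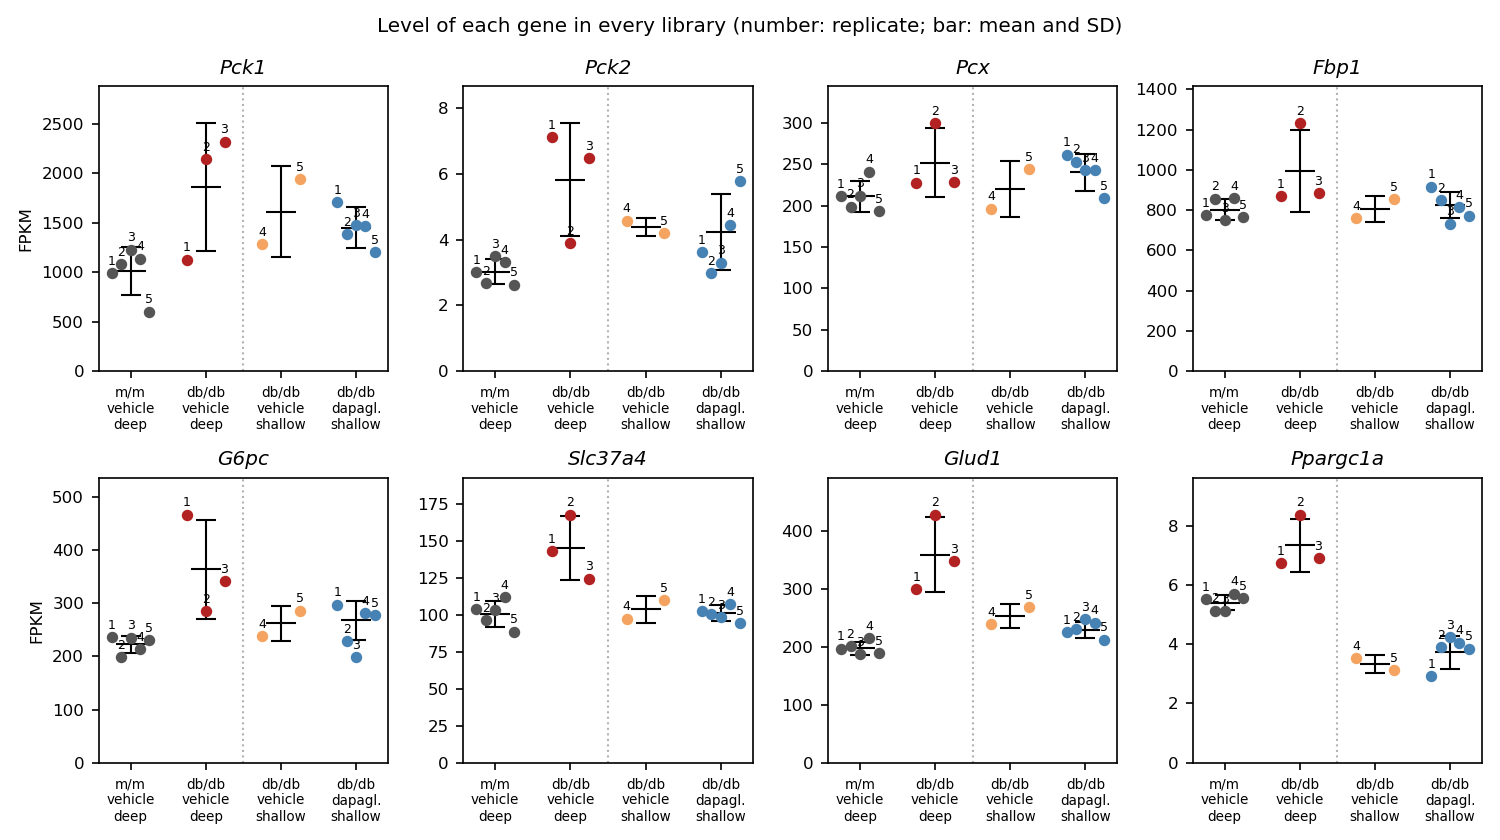
FPKM of each gene (y axis, from 0, own scale per panel) in every library, with the replicate number beside each point, by group and library set (x axis); horizontal marks and bars are the mean and SD, with dapagliflozin 2 and 3 averaged to 1 sample for them. The 3 deep db/db libraries lie above all 5 m/m libraries for 6 genes and overlap them for Pck1 and Pcx, where 37.5% of all genes tested lie entirely above, and in the shallow set the vehicle and dapagliflozin points overlap for all 8.

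The comparison of vehicle-treated db/db and m/m kidneys asks how this pathway differs in the diabetic animals. In the deep libraries 7 of the 8 genes rose, 0 fell and only Pcx did not pass the test, which was limma on log2(FPKM + 1) with p-values adjusted by the Benjamini-Hochberg method over all 12869 genes tested and a threshold of 0.05. Increases were common in this comparison: 29.5% of all genes tested rose and 8.31% fell. The groups did not overlap for 6 of the 8 genes, against 37.5% of all genes tested that lay entirely higher and 10.2% entirely lower in db/db. The median log2 fold change of the 8 genes was 0.60, against 0.16 for all genes tested. The value of 0.16 is a shift of the whole table that other scalings remove, and each fold change below is also given relative to it. After median-of-ratios scaling G6pc, Glud1, Pck2 and Slc37a4 still rose, 4 of 8, when 12.7% of all genes did. Falls became more common under that scaling, at 2321 of the 12869 genes tested against 1070 without it. All 8 fold changes stayed above 0 under that scaling and under quantile normalization. In whole kidney, a change in the number of proximal tubule cells and a change in RNA per cell cannot be told apart.

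Pck1, which turns oxaloacetate into phosphoenolpyruvate in the cytosol, stood at 993, 1078, 1226, 1137 and 601 FPKM in m/m 1 to 5 and at 1126, 2141 and 2316 FPKM in db/db vehicle 1 to 3. Libraries 2 and 3 of db/db were above every m/m library, while db/db 1 lay within their range and m/m 5 was far below the rest. The groups therefore overlapped, although the mean rose 1.85-fold. The log2 fold change was 0.86 (95% interval 0.30 to 1.41, limma adjusted p = 0.0188), or 0.70 above the median of all genes, and 96.1% of genes tested had a lower one. This call was lost without db/db vehicle 2 (0.72, adjusted p = 0.0802), without db/db vehicle 3 (0.67, adjusted p = 0.104) and under median-of-ratios scaling (0.65, adjusted p = 0.0836).

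Pck2, the mitochondrial form of the same enzyme, was read at 3.01, 2.67, 3.49, 3.31 and 2.62 FPKM in m/m and at 7.12, 3.88 and 6.47 FPKM in db/db. All db/db values were above all m/m values, with db/db 2 nearest to them. It rose by 0.73 on the log2 scale (0.36 to 1.11, limma adjusted p = 0.0052), or 0.57 above the median of all genes. These levels rest on 143 to 385 reads per library, a counting SD of 5.10% to 8.36%, and on a gene whose exons share 53 bases with an antisense gene in the GRCm38 annotation. The strand setting of the read counting is not given in the sources used here, so the value is uncertain to that extent. No other member overlapped another gene's exons. The ratio of Pck1 to Pck2 varied more within db/db than within m/m, from 158 in db/db 1 to 551 in db/db 2.

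Pyruvate carboxylase, encoded by Pcx, supplies the oxaloacetate that Pck1 and Pck2 use. Its level was 211, 199, 212, 241 and 193 FPKM in m/m and 228, 299.7 and 229 FPKM in db/db. Only db/db 2 lay above all m/m libraries. The difference of 0.25 (0.01 to 0.48) did not pass the test (limma adjusted p = 0.0953) and was 0.09 above the median of all genes.

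Fbp1, fructose-1,6-bisphosphatase, catalyses the irreversible step that phosphofructokinase opposes. It was at 776, 857, 749, 859.6 and 766 FPKM in m/m and at 869, 1231 and 884 FPKM in db/db. The groups did not overlap, but db/db 1 and 3 were close to the highest m/m libraries and the difference was carried by db/db 2. Fbp1 rose by 0.29 (0.06 to 0.52, limma adjusted p = 0.0439), or 0.14 above the median of all genes. Without db/db vehicle 2 the difference was 0.13 (adjusted p = 0.249), and it was 0.09 (adjusted p = 0.623) under median-of-ratios scaling.

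G6pc and Slc37a4 encode the catalytic subunit of glucose-6-phosphatase and the transporter that brings its substrate into the endoplasmic reticulum, the last steps before glucose leaves the cell. G6pc was at 236, 199, 235, 213 and 231 FPKM in m/m and at 467, 285 and 342 FPKM in db/db. Every db/db library exceeded every m/m library, and db/db 1, the lowest of the 3 for Pck1, was the highest for G6pc. The increase was 0.68 (0.37 to 0.99, limma adjusted p = 0.00243), or 0.52 above the median of all genes. Slc37a4 was at 104, 96.4, 103, 112 and 88.6 FPKM in m/m and at 143, 168 and 124 FPKM in db/db, again without overlap. It rose by 0.51 (0.31 to 0.72, limma adjusted p = 0.00102), or 0.36 above the median of all genes. The ratio of G6pc to Slc37a4 FPKM ran from 1.91 to 2.60 in m/m and from 1.70 in db/db 2 to 3.27 in db/db 1, so the pair did not keep 1 proportion in the diabetic kidneys.

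Glud1, glutamate dehydrogenase, releases the amino nitrogen of glutamate as ammonia and passes its carbon to the tricarboxylic acid cycle. It was at 197, 201, 188, 215 and 189 FPKM in m/m and at 301, 429 and 349 FPKM in db/db. The groups were widely separated. The rise of 0.84 (0.64 to 1.05) had the smallest adjusted p of the 8 genes (limma, 2.45e-05) and was 0.68 above the median of all genes. It passed the test in every alternative run, with fold changes from 0.64 to 0.96.

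Ppargc1a encodes PGC-1alpha, a transcriptional coactivator that in mouse liver drives Pck1 and G6pc and in kidney is best known for mitochondrial biogenesis. Its level was 5.52, 5.13, 5.12, 5.71 and 5.55 FPKM in m/m and 6.73, 8.38 and 6.90 FPKM in db/db, resting on 1247 to 1985 reads per library. The m/m values were tight and all db/db values lay above them. It rose by 0.38 (0.17 to 0.58, limma adjusted p = 0.00868), or 0.22 above the median of all genes. The call was lost under median-of-ratios scaling (0.20, adjusted p = 0.14), under quantile normalization (0.16, adjusted p = 0.236) and without db/db vehicle 2 (0.29, adjusted p = 0.0507).

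**Figure D2:**
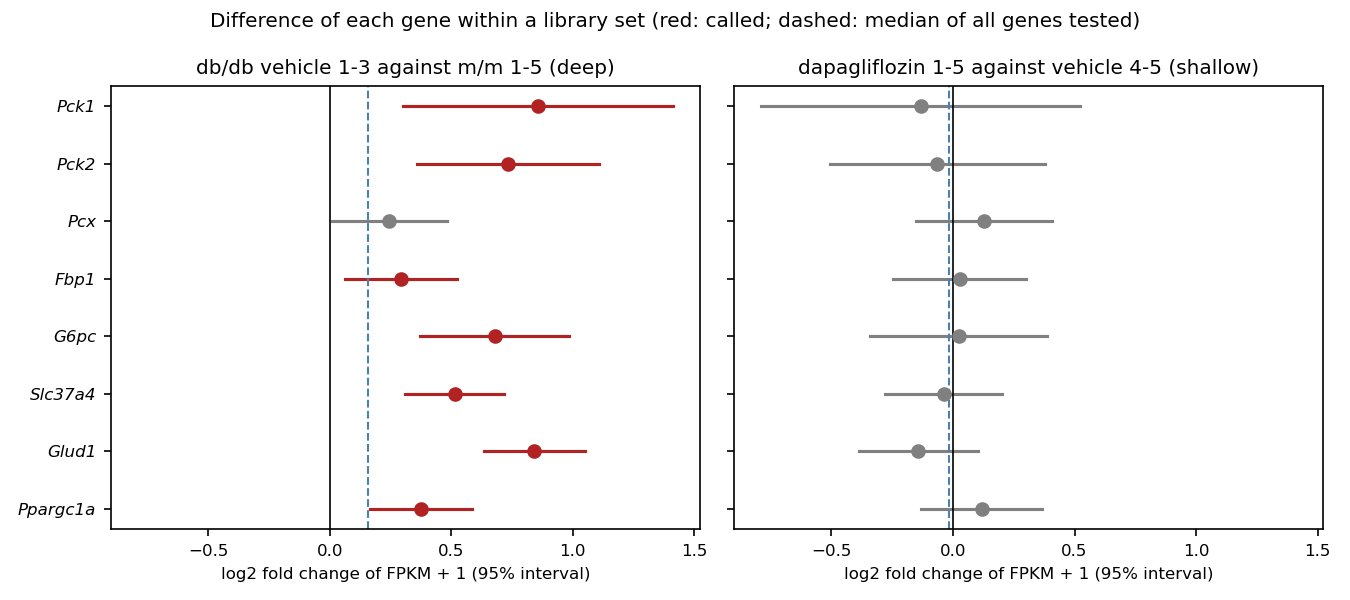
Log2 fold change of FPKM + 1 (x axis) with its 95% interval for each gene, for db/db vehicle 1 to 3 against m/m 1 to 5 (left) and dapagliflozin against vehicle 4 and 5 in db/db (right); red marks an adjusted p under 0.05 and the dashed line the median of all genes tested. On the left 7 of 8 genes are called higher and all but Pcx, Fbp1 and Ppargc1a lie above 0.50, while on the right all 8 intervals cross 0.

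The db/db libraries did not rise by 1 common amount. Relative to the m/m mean, db/db 1 was higher by 1.07 for G6pc and 1.02 for Pck2 on the log2 scale but by 0.20 for Pck1. In db/db 2 the largest deviations were those of Pck1 (1.13) and Glud1 (1.11), and this library was the highest of the 3 for Pcx, Fbp1, Slc37a4, Glud1 and Ppargc1a. It was the lowest of the 3 for G6pc (0.36) and Pck2 (0.28). In db/db 3, Pck1 was at 1.24 and Fbp1 at 0.14. Among m/m libraries, the largest deviation was that of Pck1 in m/m 5, at −0.70.

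**Figure D3:**
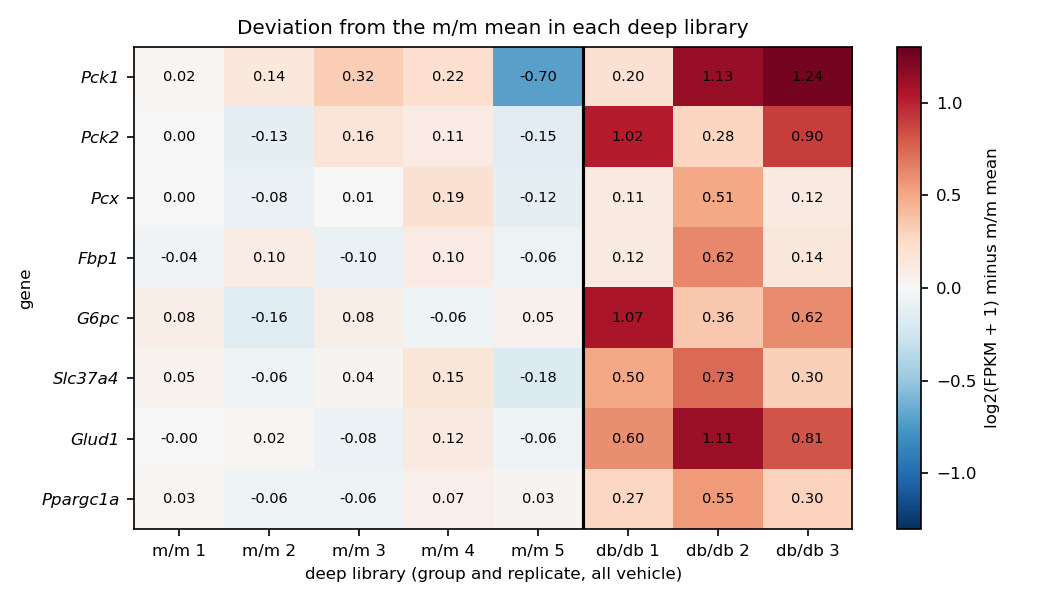
Difference of log2(FPKM + 1) from the m/m mean (colour, printed in each cell) for the 8 genes (rows) in the 8 deep libraries (columns). All db/db cells are above 0, with G6pc and Pck2 at 1.07 and 1.02 in db/db 1 and Pck1 at 1.13 and 1.24 in db/db 2 and 3.

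In each of the 15 fits that left out 1 library, the calls of G6pc, Glud1, Pck2 and Slc37a4 held. Pck1 was called in 13 of them, Ppargc1a in 14 and Fbp1 in 9. Leaving out a library of the shallow set can also move a call, because all libraries share 1 estimate of the spread. The number of members called ran from 4 to 7 over these fits and was 4 without db/db vehicle 2.

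**Figure D4:**
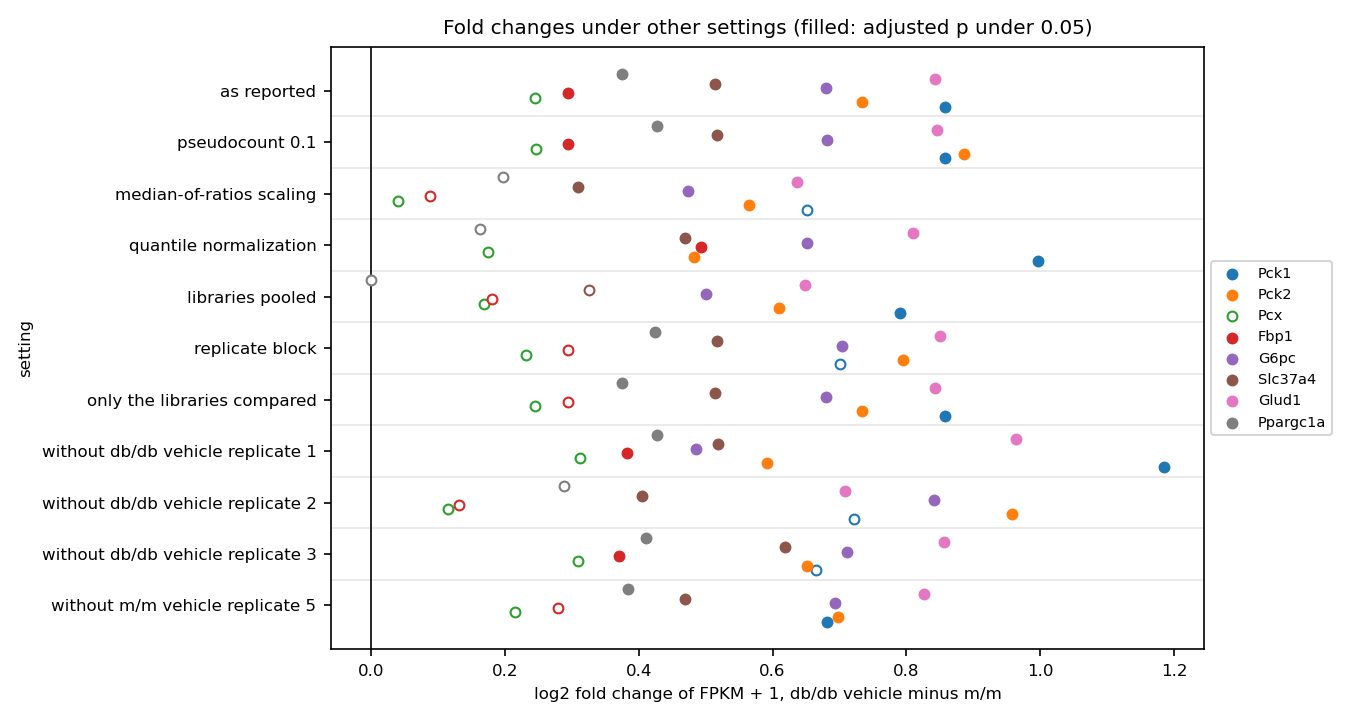
Log2 fold change of each gene for db/db vehicle against m/m (x axis) as reported and under 10 other settings (rows); filled points have an adjusted p under 0.05. G6pc, Glud1 and Pck2 are filled in every row shown, and Ppargc1a lies at −0.00061 where deep and shallow libraries are pooled.

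The genes most like Pck1 and G6pc were sought among 5273 genes with at least 10 FPKM, by the root mean square difference of log2 deviations over the 8 deep libraries. This is a description over libraries that share the genotype difference. For Pck1, whose own deviations had a root mean square of 0.58, the closest were Slc25a25, a mitochondrial ATP-Mg/phosphate carrier (0.27), Slc13a2, the citrate and dicarboxylate transporter of the proximal tubule (0.29), and Apob, the apolipoprotein of lipid-rich particles (0.29). Slc25a25 shared the low value of m/m 5, with 11.9 FPKM there against 19.4 to 24.2 in the other m/m libraries. For G6pc, with 0.38 of its own, they were Gsn, the actin-severing protein gelsolin (0.08), Aif1l, an actin-binding protein gene (0.08), and Adprh, an ADP-ribosylarginine hydrolase (0.10). Gsn shared the high value of db/db 1, at 33.3 FPKM against 21.2 and 23.4 in db/db 2 and 3. Slc25a25, Slc13a2 and Aif1l overlap exons of a gene on the opposite strand and are uncertain.

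Paralogs of the enzymes were also measured. Fbp2, a muscle-type fructose-1,6-bisphosphatase, rose by 1.43 on the log2 scale (limma adjusted p = 0.000526), with means of 8.09 ± 2.56 FPKM in m/m (n = 5) and 23.8 ± 8.35 in db/db (n = 3). It remained far below Fbp1 in level. G6pc3, the ubiquitous glucose-6-phosphatase subunit, was at 36.8 ± 1.33 and 36.9 ± 2.03 FPKM and did not pass the test (adjusted p = 0.985). G6pc2, the islet form, was under the filter with means of 0.0642 and 0.0515 FPKM.

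Of the 10 enzymes that gluconeogenesis shares with glycolysis in reversible steps, 6 rose and 0 fell, with a median of 0.34 against 0.16 for all genes. Of all genes tested 29.5% rose and 8.31% fell. After median-of-ratios scaling 3 of the 10 rose and 1, Tpi1, fell, where 12.7% of all genes rose and 2321 of 12869 fell. Enolase 1 (Eno1) went from 392 ± 17.5 to 882 ± 74.1 FPKM (1.17, limma adjusted p = 2.01e-07). Several enzymes that oppose gluconeogenesis rose as well. Of 10 tested, 7 rose and 0 fell (median 0.29), beside the same 29.5% and 8.31% of all genes. After median-of-ratios scaling 4 rose and 0 fell, when 12.7% of all genes rose. Pklr, the pyruvate kinase of liver, kidney and red cells, went from 14.2 ± 0.581 to 58.0 ± 3.80 FPKM (1.96, limma adjusted p = 1.26e-08) and Pkm, the other pyruvate kinase gene, from 35.2 ± 2.61 to 74.2 ± 9.65 (1.05, limma adjusted p = 7.78e-06). Exons of Pklr and Pkm overlap those of other genes, so both values are uncertain. Pyruvate kinase turns phosphoenolpyruvate, the product of Pck1 and Pck2, into pyruvate. Whether the 2 sets of enzymes rose in the same cells was not tested, because the RNA is of whole kidney.

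Several routes feed carbon into the pathway. Beside the counts below, 29.5% of all genes tested rose and 8.31% fell (median 0.16). After median-of-ratios scaling 12.7% rose and 2321 of 12869 fell. Of 14 genes of glutamine and ammonia supply 7 rose and 0 fell, or 6 and 2 (Ogdh and Sucla2) after that scaling. The median of this list, 0.19, was near that of all genes. Slc38a3, the basolateral glutamine transporter SNAT3 of the proximal tubule, went from 18.0 ± 3.01 to 74.1 ± 15.5 FPKM (1.98, limma adjusted p = 5.12e-07). Slc25a10, the mitochondrial dicarboxylate carrier, rose by 0.50 (adjusted p = 4.91e-05) and overlaps an antisense gene. Among 9 genes for alanine, aspartate, serine and proline, Got2, Gpt, Got1, Prodh and Slc25a12 rose and 0 fell (median 0.29), with Got2 uncertain for an exon overlap. After median-of-ratios scaling Got1, Got2 and Gpt rose and Slc25a13 fell. Gpt, alanine aminotransferase, went from 16.0 ± 3.59 to 37.8 ± 10.4 FPKM (1.18, limma adjusted p = 0.000235).

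Of 8 genes of lactate and pyruvate supply only Slc16a7, a lactate and pyruvate transporter, rose (0.42, limma adjusted p = 0.00152), and the list's median of 0.09 was below that of all genes. Of all genes tested 29.5% rose and 8.31% fell. After median-of-ratios scaling 0 of the list rose, and Ldha and Mpc1 fell, where 12.7% of all genes rose and 2321 of 12869 fell. Exons of Slc16a7 overlap a transcript on the opposite strand, so its value is uncertain. For glycerol, the dehydrogenase Gpd1 (0.92, limma adjusted p = 9.68e-06) and the water and glycerol channel Aqp3 (0.69, adjusted p = 1.45e-05) rose, while the kinase Gk fell from 189 ± 14.9 to 135 ± 9.28 FPKM (−0.48, adjusted p = 0.00457), and the same 3 calls were made after median-of-ratios scaling. Gpd1 and Gk overlap antisense genes and are uncertain. At the exit, Slc2a2, the basolateral glucose transporter GLUT2, went from 92.5 ± 10.9 to 174 ± 8.83 FPKM (0.91, limma adjusted p = 5.86e-06). Slc2a1, the GLUT1 gene, was at 16.3 ± 1.09 and 18.4 ± 4.59 FPKM and did not pass the test (0.14, adjusted p = 0.35); it overlaps an antisense gene.

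Of 20 transcription factors and cofactors of the pathway 7 rose and 2 fell (median 0.14), near the shares over all genes tested (29.5% and 8.31%), or 2 rose (Cebpb and Nr0b2) and 3 fell (Hnf4a, Klf15 and Nr3c1) after median-of-ratios scaling. Nr0b2, which encodes the corepressor SHP, rose by 0.74 (limma adjusted p = 0.000441), from 0.79 to 2.02 FPKM. Cebpb, an activator of Pck1 in mouse liver, rose by 0.73 (adjusted p = 0.000835) and overlaps a gene on the opposite strand. Klf15, a factor that promotes amino acid use for gluconeogenesis in mouse liver, fell by 0.48 (adjusted p = 0.00757), and Nr3c1, the glucocorticoid receptor gene, fell by 0.28 (adjusted p = 0.0168). Foxo1, the insulin-inhibited activator of G6pc, was at 12.5 ± 0.590 and 13.1 ± 1.13 FPKM (0.06, limma adjusted p = 0.613), and it overlaps an antisense gene. Of 14 insulin and kinase regulators 6 rose and 0 fell (median 0.16, as for all genes), or 1 rose (Pik3r1) and 4 fell (Akt2, Prkaa2, Prkaca and Sik1) after median-of-ratios scaling. Falls were common under that scaling, at 2321 of all 12869 genes tested. Pik3r1, the regulatory subunit of phosphoinositide 3-kinase, rose by 0.46 (adjusted p = 0.000547), and Sik2, a kinase that restrains the CREB coactivators, by 0.34 (adjusted p = 0.00355, with exons shared with another gene).

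Known targets of PGC-1alpha were called in both directions, with a median near that of all genes (0.15 against 0.16). Of 11 genes 5 rose and 1 fell, where 29.5% of all genes tested rose and 8.31% fell. After median-of-ratios scaling 2 rose (Cpt1b and Ucp2) and 4 fell (Acadm, Atp5b, Cycs and Sod2). Under that scaling 12.7% of all genes rose and 2321 of 12869 fell. Ucp2, an uncoupling protein of the inner mitochondrial membrane, rose by 1.79 (limma adjusted p = 0.000261) and the carnitine palmitoyltransferase gene Cpt1b by 1.09 (adjusted p = 0.000252); both overlap another gene. Acadm, medium-chain acyl-CoA dehydrogenase, fell by 0.35 (adjusted p = 0.00841). The functional annotation in the authors' deposited table marks 24 genes as gluconeogenesis, of which 22 were tested, 14 rose and 0 fell (median 0.41). Of all genes tested 29.5% rose. After median-of-ratios scaling 9 rose and 1, Tpi1, fell (median 0.23), when 12.7% of all genes rose. Pck1, Pck2, Fbp1, G6pc and Pcx are among the 24, and all of these but Pcx are among the 14.

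**Figure D5:**
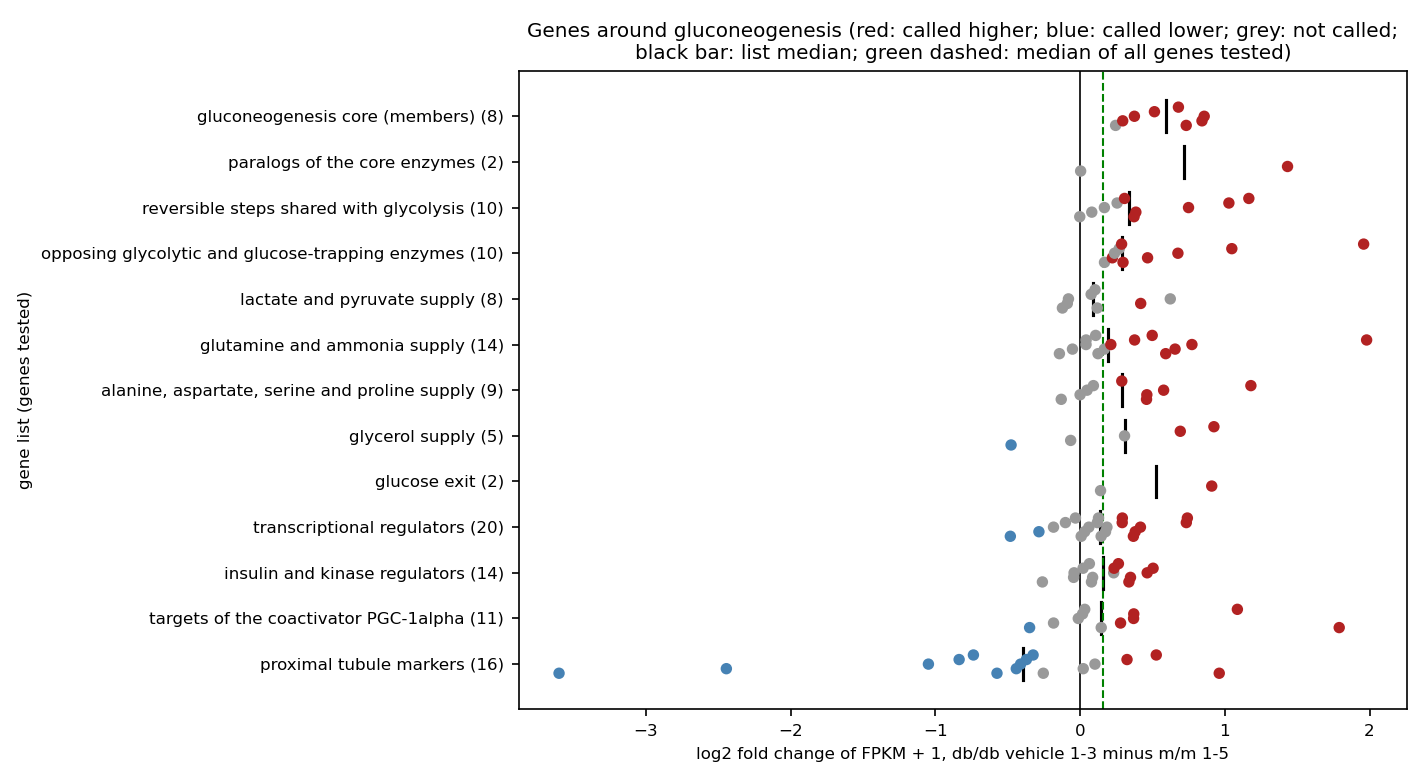
Log2 fold change of FPKM + 1 for db/db vehicle 1 to 3 against m/m 1 to 5 (x axis) of every tested gene in the pathway lists and among proximal tubule markers (rows, number tested in brackets); red and blue mark genes called higher and lower, black bars the median of a list and the green dashed line the median of all genes, 0.16. The core genes have a median of 0.60, while the proximal tubule markers lie mostly to the left, with a median of −0.39.

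The proximal tubule is the segment that holds most gluconeogenic enzymes, and most of its markers went the other way from the 8 genes. Of 16 tested markers 10 fell and 3 rose (Slc5a1, Slc22a8 and Slc4a4), with a median of −0.39. Of all genes tested 8.31% fell and 29.5% rose. After median-of-ratios scaling 11 markers fell and 2 rose, where 2321 of all 12869 genes fell and 12.7% rose. Their summed FPKM was 11545 to 12250 in m/m and 7140 to 8760 in the deep db/db libraries. Ggt1, a brush-border peptidase, went from 628 ± 51.6 to 303 ± 20.9 FPKM (−1.05, limma adjusted p = 4.92e-07), and the fatty acid transport protein gene Slc27a2, which overlaps another gene, fell by 0.84 (adjusted p = 1.67e-06). Summed markers were higher in db/db for the distal convoluted tubule (519 to 698 FPKM against 246 to 313), the collecting duct (302 to 371 against 159 to 212) and podocytes (137 to 153 against 77.6 to 97.5). The ranges overlapped for the thick ascending limb (1142 to 1509 against 1344 to 1605, with 1 gene higher and 1 lower of 5) and for the endothelium (137 to 188 against 119 to 139). Liver, the other gluconeogenic tissue, gave marker sums of 26.7 to 40.4 FPKM in m/m and 55.5 to 62.8 in deep db/db, mostly from Serpina1a. Ahsg and Tat were at 0 in every m/m library, while no liver marker was at 0 in every deep db/db library. Adrenal cortex markers summed to 0.308 to 0.505 FPKM in m/m and 2.12 to 2.97 in deep db/db. Adipocyte markers summed to 0.236 to 0.653 FPKM in m/m and 1.53 to 3.83 in deep db/db. Of these 8 adipocyte markers, Adipoq alone was at 0 in every deep db/db library. Plin1, Lep and Adrb3 were at 0 in every m/m library. The only adipocyte marker tested, Plin4, rose by 1.36 (limma adjusted p = 1.44e-05) and overlaps another gene. Macrophage markers ranged from 38.0 to 59.6 FPKM in m/m and from 37.8 to 124 in deep db/db. The part of these cell types in the changes of the 8 genes was not tested.

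Comparing dapagliflozin with vehicle in db/db mice asks whether blocking glucose reabsorption moved these genes. None of the 8 passed the test (limma, 0 of 8 at an adjusted p under 0.05 and 0 of 8 at an unadjusted p under 0.05), and 0.28% of all genes tested did, 17 higher and 19 lower. The fit set 4 samples, with dapagliflozin 2 and 3 averaged, against 2 vehicle libraries. For all 8 genes the groups overlapped, whereas 5.73% of all genes tested lay entirely higher and 7.09% entirely lower under the drug. The median log2 fold change of the 8 was −0.0065. Since only 2 vehicle libraries serve as the reference, the intervals are wide, and a p that misses the threshold does not show that levels were the same.

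Pck1 was at 1284 and 1937 FPKM in db/db vehicle 4 and 5 and at 1704, 1386, 1476, 1462 and 1200.2 FPKM in dapagliflozin 1 to 5. The vehicle libraries were farther apart than the highest and the lowest drug library, and all drug libraries but dapagliflozin 5 lay between them. The difference was −0.13 with an interval of −0.79 to 0.52 (limma adjusted p = 0.912). Its partner Pck2 was at 4.58 and 4.20 FPKM under vehicle and at 3.61, 2.98, 3.30, 4.44 and 5.78 under the drug (−0.06, −0.51 to 0.38, adjusted p = 0.941). Those levels rest on 17 to 45 reads, a counting SD of 14.9% to 24.3%, so that even a sizeable change in Pck2 would be hard to see at this depth.

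Pcx was at 196 and 244 FPKM under vehicle and at 262, 253, 243, 243 and 209 under dapagliflozin (0.13, −0.15 to 0.41, limma adjusted p = 0.746). Fbp1 was at 762 and 853 FPKM and at 916, 849, 732, 815 and 773 (0.03, −0.24 to 0.30, adjusted p = 0.96). For Pcx dapagliflozin 1 and 2 lay above both vehicle libraries, and for Fbp1 dapagliflozin 1 lay above and dapagliflozin 3 below them. G6pc was at 239 and 286 FPKM under vehicle and at 298, 229, 198, 282 and 278 under the drug (0.02, −0.34 to 0.39, limma adjusted p = 0.978). Slc37a4 was at 97.3 and 110.0 FPKM and at 102, 101, 98.3, 107 and 94.4 (−0.04, −0.28 to 0.20, adjusted p = 0.936). For both genes of the glucose-6-phosphatase system, drug libraries lay on either side of the vehicle mean.

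Glud1, at 239 and 269 FPKM under vehicle, was at 226, 231, 249, 242 and 213 under dapagliflozin. Of the 5 drug libraries, 3 were below both vehicle libraries. The difference was −0.14 (−0.39 to 0.10, limma adjusted p = 0.66). Ppargc1a was at 3.54 and 3.13 FPKM and at 2.92, 3.90, 4.24, 4.05 and 3.85 (0.12, −0.13 to 0.37, adjusted p = 0.732), from 87 to 140 reads per library. Here 4 of the 5 drug libraries exceeded both vehicle libraries and dapagliflozin 1 was below them.

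Without dapagliflozin 1 and 5, a choice made after the data were seen, 0 of the 8 genes passed the test (limma) while 477 of all genes did. Fold changes were then −0.12 for Pck1, −0.09 for G6pc, −0.07 for Glud1 and 0.23 for Ppargc1a, with adjusted p-values from 0.255 to 0.996 over the 8 genes. In the fit of all libraries the intervals of the log2 change ran from −0.79 to 0.52 for Pck1 and from −0.28 to 0.20 for Slc37a4. These intervals assume independent groups, which is in doubt for the shallow libraries. They therefore do not exclude larger changes under the drug, for Slc37a4 as for Pck1. In the other pathway lists 0 genes passed the test under dapagliflozin (limma, adjusted p under 0.05), or only Pklr, which was lower, without dapagliflozin 1 and 5.

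Several of the genes differed between deep and shallow libraries within the db/db vehicle group, where the library set and the samples it holds cannot be told apart. Vehicle 4 and 5 were below all of vehicle 1 to 3 for Slc37a4, Glud1, Fbp1 and Ppargc1a. The difference on the log2 scale was −0.94 for Ppargc1a, −0.49 for Glud1, −0.47 for Slc37a4 and −0.45 for G6pc, and it was smallest for Pck1 at −0.17. Ppargc1a under vehicle was at 3.13 and 3.54 FPKM in the shallow and at 6.73 to 8.38 in the deep libraries, so its order relative to m/m differs between the sets. For that reason the values of m/m and of dapagliflozin libraries, which lie in different sets, are not set against each other.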

How the data were processed

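The authors deposited 1 table of FPKM per gene (17832 genes, 15 libraries). The submitters' processing notes name build GRCm39 and the tools HISAT2, HTSeq, Cufflinks and Trimmomatic; versions and strand setting were not found in the labels or the file. Per the labels' protocols, kidney RNA (mirVana kit) went into TruSeq Stranded mRNA libraries. Reads per gene were recovered from the steps of the FPKM values, of which 100% came out whole (relative tolerance 1e-06); simulated tables were used to check this. A boundary of 5 M reads separated the library sets. Each library pair was compared by the variance of its read numbers over genes with 20 to 100 expected reads.

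The fit was limma 3.58.1 (R 4.3.3) with a trended prior on log2(FPKM + 1), in 12869 genes averaging 0.5 FPKM or more, and 4 cells of group by library set, with dapagliflozin 2 and 3 averaged (14 samples, 10 residual degrees of freedom). Tests were 2-sided with Benjamini-Hochberg adjustment. Fold changes on this scale understate those of low genes. The fit was also checked on simulated data. The members and lists were chosen with earlier results of these data known.

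All members are named. Of each list, up to 2 called genes per direction by smallest adjusted p are named, along with genes in counts of 5 or fewer and the 3 most like Pck1 and G6pc. A gene that met this rule is not reported here. Foxo1, Slc2a1, G6pc2 and G6pc3 were added after their values were seen. Promoters are RefSeq windows on GRCm38.p6, matched by symbol for 8 of 8 members; exon overlaps come from GENCODE on GRCm38, by symbol.

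Alternatives were a pseudocount of 0.1, no filter or one at 5 FPKM, median-of-ratios scaling, quantile normalization, all libraries pooled, only the libraries compared, the replicate number as a block, dapagliflozin 2 and 3 apart, and each library left out. Averaging dapagliflozin 1, 2 and 3 and leaving out 1 and 5 were added after seeing the data.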

Additional observations from a re-analysis of the deposited data

How the results depend on the processing

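For db/db against m/m, the number of members called was 7 as reported, 4 after median-of-ratios scaling, 4 with deep and shallow libraries pooled, 5 with the replicate block and 4 to 7 without 1 library. No member fell in any of these. Pooled, Ppargc1a turned to −0.00061 (adjusted p = 0.999) and Slc37a4 was no longer called (0.32, adjusted p = 0.0726). Fbp1 lost its call in 11 of 26 alternatives, 6 of them without 1 library. All genes called numbered 4869 as reported (3799 higher, 1070 lower), 3170 pooled, 3935 with the replicate block and 3370 to 5222 without 1 library. The split was 1638 higher and 2321 lower after median-of-ratios scaling and 1586 and 1745 after quantile normalization, which remove the shift of 0.16. The cause of these differences was not tested.

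Under dapagliflozin 0 members were called in all alternatives run. The sign of uncalled differences turned pooled (Fbp1 −0.14, G6pc −0.24, Ppargc1a −0.45), with the replicate block (Pck2 0.061, Fbp1 −0.0023), with dapagliflozin 1, 2 and 3 averaged (Pck2 0.0069), with 2 and 3 separate (G6pc −0.040) and without 1 and 5 (Fbp1 −0.0056, G6pc −0.089). Without 1 library, ranges crossed 0 for Pck1 (−0.43 to 0.16), Pcx (−0.028 to 0.29), Fbp1 (−0.054 to 0.11), G6pc (−0.11 to 0.15) and Slc37a4 (−0.12 to 0.050). All genes called numbered 36, against 222 without a filter, 1 with a filter at 5 FPKM, 850 pooled, 1 with only the compared libraries, 1 with the replicate block, 69 with dapagliflozin 1, 2 and 3 averaged, 477 without 1 and 5, and 1 to 126 without 1 library; the cause was not tested.

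Same-numbered libraries did not all deviate together: correlations were 0.381, 0.0538 and −0.0082 for m/m with db/db vehicle 1 to 3. Among these libraries, pairs of different numbers ran from −0.296 to 0.0278. Whether the numbers pair the libraries cannot be decided from this, because deviations of a group's libraries from their own mean are tied to each other. For vehicle and dapagliflozin 4 and 5 this could not be judged, because deviations of 2 vehicle libraries from their mean mirror each other. With the replicate block Pck1 (0.70, adjusted p = 0.0649) and Fbp1 (0.29, adjusted p = 0.0822) were not called, and no member was called that had not been.

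Depth limits Pck2 and Ppargc1a in the shallow libraries, where 17 to 45 and 87 to 140 reads stand behind each value. The drug comparison rests on 2 vehicle libraries that differ from 2 drug libraries by less than sampling noise.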
